A study of Mus musculus with 16 samples.

Results

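Membrane carriers for sugars, amino acids and monocarboxylates were followed through the mouse endoderm between E7.5 and E8.75. They were taken as every gene symbol that began with Slc1a, Slc2a, Slc3a, Slc5a, Slc6a, Slc7a, Slc16a, Slc36a or Slc38a and a number, and that had 10 or more counts in 2 or more of 16 libraries. The count files listed 26761 symbols, of which 100 belonged to these 9 families, and 91 of them met the count rule. All 14 Slc16a, 7 Slc1a, 13 Slc5a and 2 Slc3a symbols were kept, with 11 of 12 Slc2a, 10 of 11 Slc38a, 14 of 16 Slc7a, 17 of 21 Slc6a and 3 of 4 Slc36a symbols. Slc2a7, Slc36a3, Slc38a11, Slc6a3, Slc6a12, Slc6a20a, Slc6a21, Slc7a12 and Slc7a13 stayed below the rule. Slc7a6os met the rule by its name alone, since it is not a carrier and is named for lying opposite Slc7a6.

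Poly(A) RNA was sequenced from 8 groups of 2 libraries. Extraembryonic visceral endoderm (exVE) and embryonic visceral endoderm (emVE) came from E7.5 embryos and are labelled as cells. Gut tubes came from E8.75 embryos at the 13-somite stage as whole tissue (bulk), as cells dissociated with enzymes (dissociated), and as 4 sections named anterior, anterior-midgut, midgut-posterior and posterior. The labels' protocols place Afp-GFP transgenic embryos and a trypsin and pancreatin treatment before the dissection of gut tubes for single cells, and give no genotype, sex or embryo number for any of these 16 libraries. Whether the 2 libraries of a group are separate pools of embryos is not stated, so p-values measure only the spread between these samples, which may be technical.

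Visceral endoderm is the absorptive epithelium that surrounds the early embryo. It takes up maternal protein and lipid at a brush border facing the maternal side and passes nutrients inward, and part of its embryonic portion later becomes incorporated into the gut tube. Glucose enters cells through facilitative carriers (Slc2a) or with sodium (Slc5a), lactate and related acids pass through Slc16a carriers, and amino acids are moved by the Slc1a, Slc6a, Slc7a, Slc36a and Slc38a families. Several Slc7a carriers reach the membrane only as light chains bound to a heavy chain, Slc3a1 or Slc3a2.

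Library totals ran from 57061536 to 84509973 counts. Levels are CPM, counts scaled per 1e6 of the library total times its TMM factor, printed library by library or as mean ± SD (n = 2), and changes are log2 differences ± SE with the Benjamini-Hochberg adjusted p of edgeR's quasi-likelihood test over 17313 genes; a gene passed at an adjusted p under 0.05. TMM factors were 0.787 and 0.775 in exVE and 0.997 to 1.10 elsewhere, so scaling to library totals alone lowers the median of all genes in exVE against emVE by 0.357 on the log2 scale. The summed level of 23 genes of visceral endoderm, such as Afp, Ttr and Apob, was 51396 and 55744 CPM in exVE, 21084 and 23058 in emVE and 992 to 9609 in the E8.75 libraries, with none of the 23 at 0 in any library. The 12 midgut and hindgut markers summed to 1518 and 1165 CPM in the posterior and 17.8 and 17.1 in the anterior section, and the 15 anterior foregut markers to 251 and 169 and 1159 and 711. These are tissues of mixed cells: 12 endothelial markers summed to 411 to 1138 CPM in every E8.75 library. A lower level can therefore come from fewer cells of a type or from less RNA per cell, which bulk libraries cannot tell apart.

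The 91 genes made up 1.35% and 1.45% of all counts in exVE and 1.17% and 1.23% in emVE, against 0.365% to 0.554% in the 12 gut tube libraries. Together 3 carriers, Slc2a3, Slc2a1 and Slc16a1, held 67.2% and 67.8% of the members' counts in exVE, 75.7% and 75.8% in emVE and 45.4% to 62.8% at E8.75. The E7.5 libraries do not overlap the E8.75 libraries in this share. Mitochondrial transcripts also differed between the stages, with 4.77% to 6.65% of counts at E7.5 and 0.959% to 2.63% at E8.75, and their part in the shares was not tested.

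**Figure D1:**
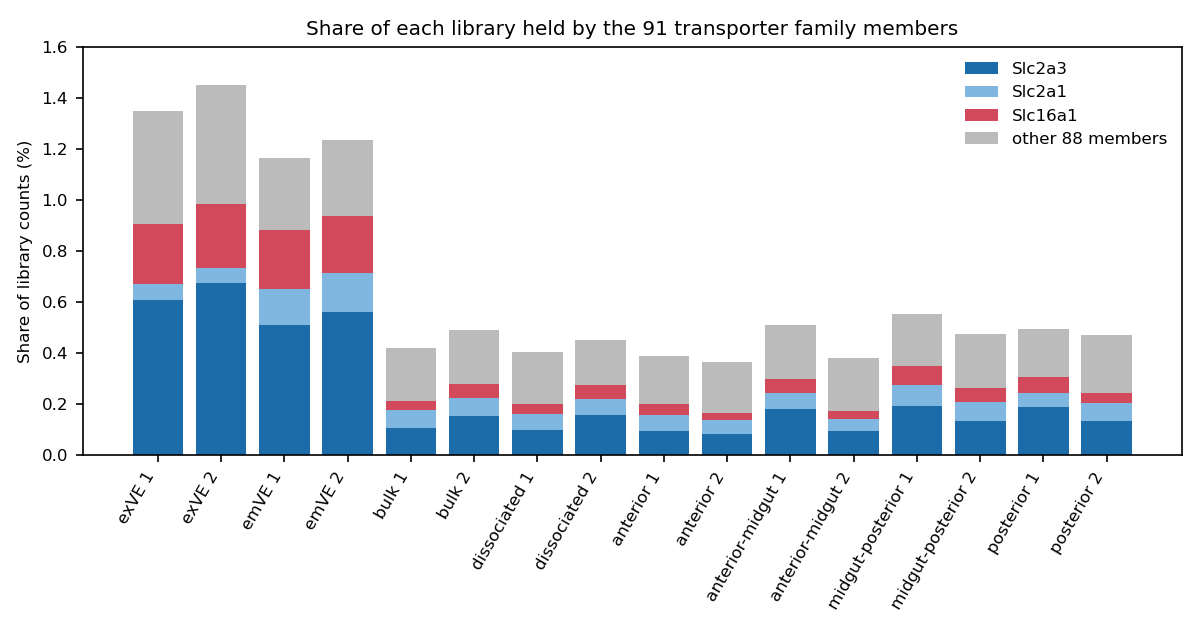
Share of each library's counts (percent, linear axis from 0) held by the 91 genes, 1 bar per library, with Slc2a3, Slc2a1 and Slc16a1 in colour and the other 88 genes in grey. The 4 bars of E7.5 stand between 1.17% and 1.45% and the 12 bars of E8.75 between 0.365% and 0.554%.

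Carriers that differed between exVE and emVE at E7.5 went both ways. Several carriers of amino acid exchange and of the lysosome were higher in exVE, while system A carriers for small neutral amino acids, 6 of the 11 Slc2a glucose and polyol carriers and the lactate exporter Slc16a3 were higher in emVE. Of the 91 genes, 16 were higher in exVE and 29 lower. Over all genes tested, 20.1% were higher and 23.8% lower, so the count of higher genes lies near the background and that of lower genes above it. The median log2 change of the 91 was -0.37, beside 0 for all genes. Scaled to library totals alone, 13 were higher and 36 lower, where 7.61% of all genes were higher and 34.1% lower. Under that scaling the share of higher genes among the 91, 14.3%, was above the background, and how the counts stand to the background depends on the scaling. Slc7a6os rose by 0.29 on the log2 scale and turned to -0.09 under that scaling.

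Of the abundant glucose carriers Slc2a1 passed the test and Slc2a3 did not. Slc2a3, a high-affinity glucose carrier, was at 7736 and 8711 CPM in exVE and 5003 and 5559.9 in emVE (log2 change 0.64 ± 0.32, adjusted p = 0.132). Slc2a1, the carrier found in most tissues, was at 795 and 751 CPM in exVE and 1367 and 1519 in emVE and was lower in exVE (log2 change -0.90 ± 0.15, adjusted p = 0.000602). The libraries of the 2 groups did not overlap for either gene. Slc2a2, the low-affinity glucose carrier of liver, intestine and kidney, was at 648 and 727 CPM in exVE and 157 and 163 in emVE, a log2 change of 2.10 ± 1.04 that missed the threshold (adjusted p = 0.123). Libraries of 1 gut tube group could lie far apart for Slc2a2, and in a fit of the 4 E7.5 libraries alone it passed (log2 change 2.02 ± 0.09, adjusted p = 1.9e-05). Slc2a3 also passed there (log2 change 0.55 ± 0.11, adjusted p = 0.00338). That fit tested 81 of the 91 genes and put 25 of them higher in exVE instead of 16, where 25.0% of all genes were higher instead of 20.1%. Slc7a8, Slc7a9, Slc16a1, Slc16a9, Slc16a11, Slc5a11, Slc6a4 and Slc6a20b were among the 25.

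Of 11 Slc2a genes 6 were lower in exVE and none higher. Slc2a4, the insulin-responsive carrier, was at 0.161 and 0.0389 CPM in exVE and 2.18 and 1.04 in emVE (log2 change -3.99 ± 0.50, adjusted p = 7.58e-05). Slc2a10 was at 0.121 and 0.195 CPM in exVE and 2.97 and 2.68 in emVE (log2 change -4.14 ± 0.35, adjusted p = 5.13e-06). Slc2a12 (log2 change -3.84 ± 0.45) and the inositol carrier Slc2a13 (-3.01 ± 0.48) also fell. In all of these the exVE level was under 1 CPM. The fructose carrier Slc2a5 changed less, from 2.91 ± 0.29 CPM in emVE to 1.37 ± 0.567 in exVE (adjusted p = 0.0243), and missed the threshold in the 4-library fit (log2 change -1.17 ± 0.43, adjusted p = 0.0517). Tbpl1 lies opposite Slc2a12 and shares 9.61% of its exon bases, and with the strand of counting not given their reads cannot be told apart.

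Of 8 light chains of the amino acid exchangers 3 were higher in exVE and 1 lower, and 1 of 2 heavy chains was higher. Slc3a2, the heavy chain, was at 795 and 912 CPM in exVE and 303 and 343 in emVE (log2 change 1.40 ± 0.18, adjusted p = 0.000103). Its light chain Slc7a7, which exports cationic amino acids at the basolateral face, was at 429 and 495 CPM in exVE and 149 and 178 in emVE (log2 change 1.496 ± 0.40, adjusted p = 0.0103). Slc7a5, the light chain for large neutral amino acids, was at 201 and 207 CPM in exVE and 134 and 149 in emVE (log2 change 0.53 ± 0.14, adjusted p = 0.0101). All 3 were higher in exVE without overlap. Slc7a6, another exporter of cationic amino acids, rose too (log2 change 0.95 ± 0.18, adjusted p = 0.00122). Slc7a8, a light chain for neutral amino acids, was at 1125 and 1228 CPM in exVE and 315 and 369 in emVE (log2 change 1.78 ± 0.97, adjusted p = 0.157; 4 libraries alone, log2 change 1.70 ± 0.10, adjusted p = 3.27e-05). Slc7a9, which pairs with Slc3a1 to take up cystine and cationic amino acids at the brush border, was at 124 and 124 CPM in exVE and 39.6 and 43.7 in emVE (log2 change 1.57 ± 0.76, adjusted p = 0.112; 4 libraries alone, log2 change 1.49 ± 0.09, adjusted p = 3.48e-05). The cystine carrier Slc7a11 went the other way (log2 change -2.42 ± 0.91, adjusted p = 0.0489), with libraries that overlap and no call in the 4-library fit (log2 change -2.50 ± 1.04, adjusted p = 0.0774). Scaled to library totals, Slc7a5 changed by 0.15 and no longer passed.

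Slc3a1, the heavy chain of Slc7a9, stayed low. It was at 0.161 and 0.661 CPM in exVE and 0.309 and 0.274 in emVE, and its mean over the 8 groups ran only from 0.291 to 0.561 CPM. In CPM per kilobase of exon, the scale used here between genes, exVE had 59.7 of Slc7a9 and 0.181 of Slc3a1. The other heavy chain stood at 255 per kilobase in exVE, beside 288 for Slc7a8, 144 for Slc7a7, 57.9 for Slc7a5 and 38.1 for Slc7a6. Prepl lies opposite Slc3a1 and shares 26.5% of its exon bases, so even the low Slc3a1 counts cannot be assigned with certainty.

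Of the Slc38a carriers 4 of 10 were higher and 6 lower in exVE. Those higher were Slc38a6, the lysosomal glutamine carrier Slc38a7, the lysosomal arginine sensor Slc38a9 and Slc38a10. Slc38a6 was at 252 and 228 CPM in exVE and 74.9 and 64.5 in emVE (log2 change 1.78 ± 0.27, adjusted p = 0.00025). Slc38a9, which reports lysosomal amino acids to the mTORC1 kinase, was at 150.2 and 171 CPM in exVE and 59.8 and 63.1 in emVE (log2 change 1.39 ± 0.13, adjusted p = 9.18e-06). Slc38a7 was at 178 and 206 CPM in exVE and 77.8 and 87.8 in emVE (log2 change 1.21 ± 0.17, adjusted p = 0.000142). Slc38a10 rose (log2 change 0.56 ± 0.10, adjusted p = 0.000956) and lost its call under library totals, where its change was 0.19. Slc36a1, a proton-coupled carrier for small amino acids at lysosomes and the brush border, moved with them, from 43.3 and 42.7 CPM in emVE to 87 and 96.8 in exVE (log2 change 1.10 ± 0.16, adjusted p = 0.000258).

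The system A carriers Slc38a1, Slc38a2 and Slc38a4, which are next to each other on mouse chromosome 15, were lower in exVE. Slc38a1 was at 52.6 and 49.2 CPM in exVE and 127 and 113 in emVE (log2 change -1.24 ± 0.15, adjusted p = 5.25e-05). Slc38a2 was at 81.4 and 84.2 CPM in exVE and 163 and 164 in emVE (log2 change -0.98 ± 0.22, adjusted p = 0.00316). Slc38a4 was at 20.7 and 7.61 CPM in exVE and 57.6 and 52.7 in emVE (log2 change -1.96 ± 0.48, adjusted p = 0.00582). None of the 3 overlapped between the groups. The system N carriers Slc38a3 and Slc38a5 followed, with Slc38a3 at 0.807 and 0.272 CPM in exVE and 15.4 and 16.2 in emVE (log2 change -4.87 ± 0.48, adjusted p = 1.38e-05). Slc38a8, a carrier with known expression in the eye, was at 0.282 and 0 CPM in exVE and 4.73 and 6 in emVE (log2 change -5.24 ± 1.07, adjusted p = 0.00202).

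Among 14 Slc16a carriers 3 were higher (21.4%) and 4 lower (28.6%) in exVE, shares near those of all genes. Slc16a1, the main lactate and pyruvate carrier, was at 2971 and 3245 CPM in exVE and 2265 and 2214 in emVE and missed the threshold (log2 change 0.47 ± 0.31, adjusted p = 0.239). Slc16a10, an exporter of aromatic amino acids, was at 167 and 183 CPM in exVE and 56.7 and 67.5 in emVE (log2 change 1.496 ± 0.30, adjusted p = 0.00162). Slc16a13 was at 241 and 253 CPM in exVE and 98 and 112 in emVE (log2 change 1.23 ± 0.25, adjusted p = 0.00178). Both stood clear of emVE in each library. Slc16a6 rose by 1.58 ± 0.21, though Amz2 on the opposite strand shares 21.5% of its exon bases. Slc16a3, the low-affinity lactate exporter of glycolytic cells, was at 56.3 and 21.9 CPM in exVE and 129 and 125 in emVE (log2 change -1.70 ± 0.31, adjusted p = 0.000934), and the 2 exVE libraries differed from each other by more than the 2 emVE libraries. Slc16a4 and Slc16a12 were also lower, with log2 changes of -2.34 ± 0.39 and -2.51 ± 0.40.

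Of the sodium-coupled carriers, Slc5a6, which takes up biotin and pantothenate, was at 60.01 and 58.7 CPM in exVE and 19.7 and 26.3 in emVE (log2 change 1.37 ± 0.21, adjusted p = 0.000314), and Atraid on the opposite strand shares 9.92% of its exon bases. The inositol carrier Slc5a3 was at 8.51 and 6.81 CPM in exVE and 30.1 and 26.1 in emVE (log2 change -1.88 ± 0.27, adjusted p = 0.000186). The creatine carrier Slc6a8 was the only Slc6a gene of 17 that passed upward, at 54.1 and 56.7 CPM in exVE and 31.6 and 31.3 in emVE (log2 change 0.82 ± 0.16, adjusted p = 0.00145). Slc6a17, a carrier of synaptic vesicles, was lower in exVE, at 0.726 and 0.584 CPM in exVE and 3.02 and 3.56 in emVE (log2 change -2.33 ± 0.30, adjusted p = 8.27e-05). Slc7a1, the widespread carrier for arginine and lysine, rose in exVE (log2 change 1.305 ± 0.31, adjusted p = 0.00514), whereas its relative Slc7a3 fell (log2 change -2.26 ± 0.44, adjusted p = 0.00154). Slc1a4 and Slc1a5, exchangers for small neutral amino acids and glutamine, were both lower in exVE, with log2 changes of -1.23 ± 0.20 and -0.51 ± 0.14. Slc1a6, Slc5a5, Slc6a2, Slc6a7, Slc6a16 and Slc36a4 also passed as lower. Slc36a2 had 0 counts in exVE and 24 over both emVE libraries. Set against 3 counts for the 2 exVE libraries together, it was at least 6.51-fold lower.

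**Figure D2:**
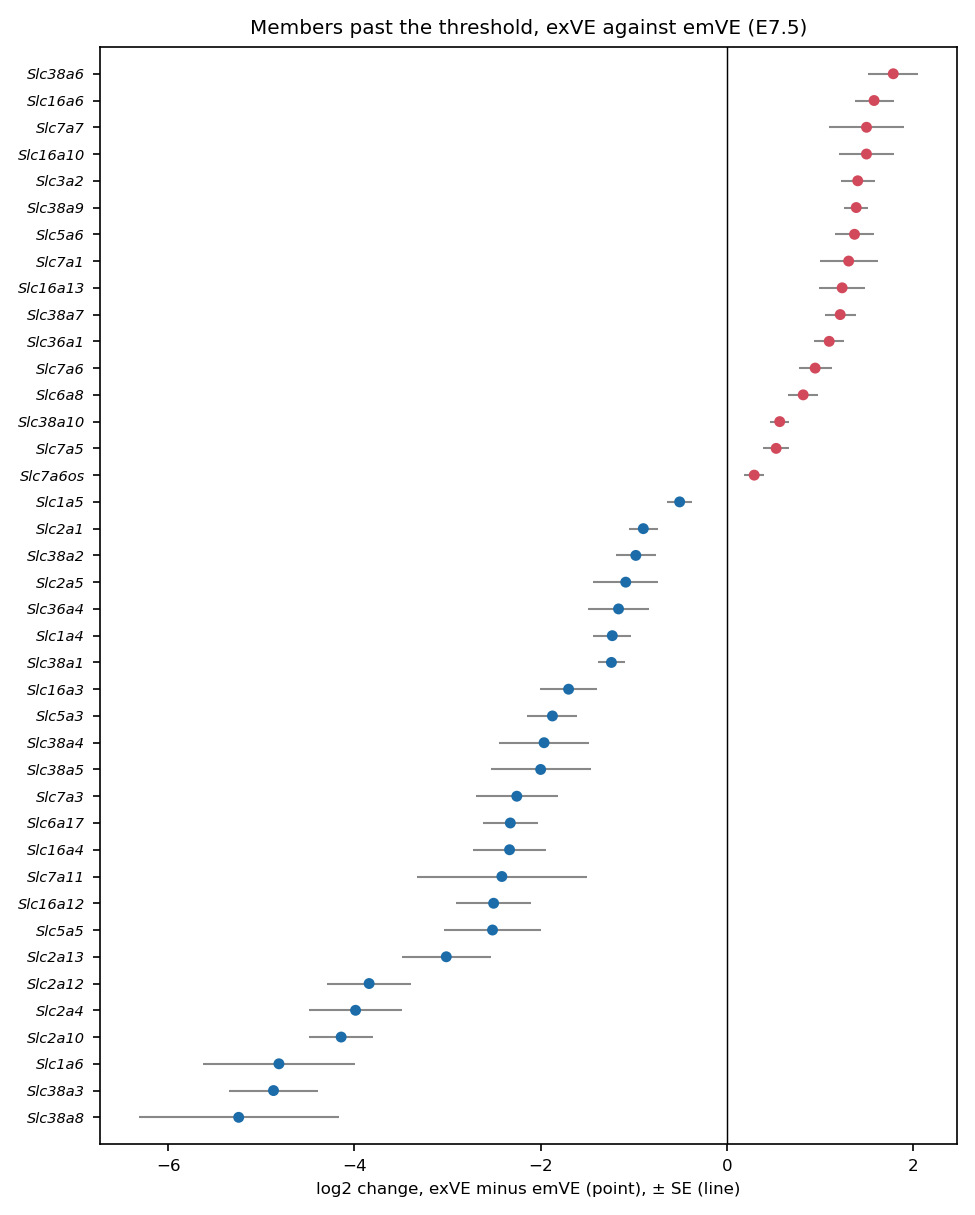
Log2 change from emVE to exVE (points, lines ± SE; linear axis) for 40 of the 45 genes past the threshold, each with a mean of 1 CPM or more in either group, sorted by change. Slc38a6 stands at the top with 1.78 and Slc38a8 at the bottom with -5.24.

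Of 18 tested genes for brush border and endocytosis, a list that shares Amn, Cubn, Lrp2 and Dab2 with the visceral endoderm markers, 7 were higher in exVE and none lower, among them the endocytic receptor Lrp2 (log2 change 2.35 ± 0.27, adjusted p = 3.64e-05) and the peptidase Dpp4 (log2 change 0.90 ± 0.26, adjusted p = 0.0141). Of 20 genes for amino acid sensing through mTORC1, 10 were higher and 2 lower: Rragc (log2 change 1.40 ± 0.18, adjusted p = 0.000103) and Mtor (log2 change 0.64 ± 0.12, adjusted p = 0.00131) rose, and Rragd (log2 change -1.84 ± 0.27, adjusted p = 0.000239) fell. Among 14 carriers of amino acids and peptides outside these families 8 were higher and 1 lower, led by the mitochondrial glutamate carrier Slc25a22 (log2 change 1.26 ± 0.13, adjusted p = 2.22e-05) and the lysosomal cystine exporter Ctns (log2 change 1.08 ± 0.15, adjusted p = 0.00015). Of 19 glycolysis genes 4 were higher and 5 lower, near the shares of all genes, and their median change was 0.03. Among all genes tested 20.1% were higher and 23.8% lower, which is the background for each of these lists. Embigin, the membrane partner of Slc16a1 encoded by Emb, was at 5483 and 7119 CPM in exVE and 3394 and 4204 in emVE (log2 change 0.73 ± 0.38, adjusted p = 0.137), and the other partner Bsg at 652 and 666 CPM in exVE and 600.4 and 649 in emVE (log2 change 0.08 ± 0.18, adjusted p = 0.765).

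Markers of other cells differed between the 2 groups. Those of epiblast and nascent mesoderm summed to 77.5 and 81.3 CPM in exVE and 621 and 553 in emVE, with 9 of 12 lower in exVE, and those of notochord to 89.1 and 76.9 in exVE and 894 and 909 in emVE, with 8 of 8 lower. None of them was at 0 in both exVE libraries. Paraxial mesoderm markers summed to 3.73 and 1.73 CPM in exVE and 109 and 98.3 in emVE, with 8 of 11 lower, and Meox1, Meox2, Mesp2 and Uncx were at 0 in both exVE libraries. Cardiac and splanchnic markers summed to 23.8 and 18.8 CPM in exVE and 80.9 and 93.6 in emVE, 9 of 16 lower. Primitive blood markers went the other way, with 89.4 and 38.3 CPM in exVE and 16.5 and 18.7 in emVE, 7 of 11 higher, and so did endothelial markers, with 162 and 115 CPM in exVE and 39.3 and 59 in emVE, 6 of 12 higher. The part of these cells in the carriers' differences was not tested. Of the 45 called genes 33 passed in each of the 4 fits that left out 1 E7.5 library.

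Between emVE at E7.5 and the bulk gut tube at E8.75, several carriers of epithelial absorption, such as Slc7a8, Slc2a2 and Slc7a9, were lower in the gut tube, and Slc16a3, Slc38a1 and a few regional carriers were higher. These 2 groups differ in stage, in tissue and in the cells they hold. The labels also name emVE as cells and the gut tube as bulk tissue. These differences cannot be told apart. Of the 91 genes 29 were lower in the gut tube and 13 higher, where 16.9% of all genes were lower and 21.7% higher. The count of lower genes, 31.9% of the 91, is above the background and that of higher genes, 14.3%, below it. The number of higher genes fell without any 1 of the bulk or emVE libraries, as did the share of all genes that were higher. It fell by over 1.5 times without bulk replicate 1 or emVE replicate 2.

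The 3 leading carriers all fell. Slc2a3 was at 958 and 1413 CPM in the bulk gut tube against the 5003 and 5559.9 of emVE (log2 change -2.16 ± 0.34, adjusted p = 0.000514). Slc16a1 was at 348 and 522 CPM (log2 change -2.37 ± 0.32, adjusted p = 0.000235) and Slc2a1 at 632 and 629 (log2 change -1.19 ± 0.15, adjusted p = 0.000153). By this fit Slc2a3 was 4.46-fold and Slc2a1 2.29-fold lower. Per kilobase, emVE had 1209 of Slc2a3 and 412 of Slc2a1, and the bulk gut tube 271 and 179.9.

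Slc16a3, the lactate exporter, rose in the gut tube. It was at 337 and 251 CPM in the bulk gut tube, higher than the 129 and 125 of emVE (log2 change 1.21 ± 0.30, adjusted p = 0.00832). In CPM per kilobase, Slc16a1 stood at 702 and Slc16a3 at 8.36 in exVE, at 506 and 27.2 in emVE, and at 98.2 and 63 in the bulk gut tube. The level of Slc16a1 was above that of Slc16a3 in all 8 groups, and the distance on this scale was larger in both E7.5 groups than in each of the 6 gut tube groups. Embigin (Emb) fell to 504 and 619.9 CPM (log2 change -2.76 ± 0.40, adjusted p = 0.000322), while Bsg was at 601 and 554 CPM and missed the threshold (log2 change -0.11 ± 0.18, adjusted p = 0.658). Of 19 glycolysis genes 7 were higher in the gut tube and 1 lower, among them Pgk1 (log2 change 1.42 ± 0.16, adjusted p = 7.36e-05) and the lactate dehydrogenase Ldha (log2 change 0.68 ± 0.12, adjusted p = 0.00141). Of 14 hypoxia-responsive genes 6 were higher and 1 lower. Both lists stand beside 21.7% of all genes higher and 16.9% lower.

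Sequence upstream of the RefSeq start of Slc16a3 is shown because it holds the short core of the hypoxia response element. RefSeq promoters (GRCm38.p6) were found by symbol for 66 of the 91 genes, and the bases from 250 before the annotated start up to the start were searched on both strands. The letters ACGTG were present in 18 of these 66 windows (27.3%), in 6 of the 20 available for genes lower in exVE than in emVE (30.0%) and in 16.5% of 27025 windows of all genes. The stretch printed runs from base 250 to base 6 before the start, chr11:120948817-120949061 on the plus strand, with ACGTG in capitals.
Slc16a3: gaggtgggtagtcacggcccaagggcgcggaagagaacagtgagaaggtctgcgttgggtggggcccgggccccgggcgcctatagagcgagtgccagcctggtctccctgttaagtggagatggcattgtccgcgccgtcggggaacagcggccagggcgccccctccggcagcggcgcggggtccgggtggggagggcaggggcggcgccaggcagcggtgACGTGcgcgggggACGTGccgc
Its 2 matches lie near the start, and the last 9 bases printed are exonic in another annotated transcript of Slc16a3. A match describes letters and shows no binding.

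Exchangers and carriers of epithelial absorption fell. Slc7a8 was at 2.09 and 6.9 CPM in the bulk gut tube (log2 change -6.24 ± 1.19, adjusted p = 0.00176), Slc2a2 at 1.69 and 7.46 (log2 change -5.12 ± 1.21, adjusted p = 0.00602) and Slc7a9 at 0.585 and 2.28 (log2 change -4.85 ± 0.89, adjusted p = 0.00136). All stayed below every emVE library, and replicate 2 was above replicate 1 in each of these 3. Slc7a7 was at 7.34 and 10.8 CPM (log2 change -4.17 ± 0.45, adjusted p = 5.6e-05), and Slc3a2 at 101 and 97.3 CPM (log2 change -1.71 ± 0.19, adjusted p = 5.6e-05). Slc7a5 fell less (log2 change -1.24 ± 0.14, adjusted p = 8.15e-05), and Slc7a6 was higher in the gut tube, at 103 and 114 CPM against 73.8 and 78.2 (log2 change 0.51 ± 0.18, adjusted p = 0.0393). The order of the light chains per kilobase differed between the tissues. Per kilobase emVE had 83.6 of Slc7a8, 51.1 of Slc7a7, 40.2 of Slc7a5 and 19.8 of Slc7a6, and the bulk gut tube 1.1, 2.83, 17.1 and 28.2 in the same order.

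A list of 21 carriers was grouped by the epithelial face they occupy in adult gut or kidney. The grouping was chosen with earlier results of these data known, so its counts describe these carriers and are no test. Of these, 6 of 16 apical and 5 of 5 basolateral carriers were lower in the gut tube and none was higher. The share of all genes that were lower was 16.9%. The lysosomal carriers fell too: Slc38a9 was at 15.4 and 14.1 CPM (log2 change -2.06 ± 0.13, adjusted p = 5.19e-06), Slc36a1 at 10.9 and 11.5 (log2 change -1.94 ± 0.17, adjusted p = 1.8e-05) and Slc38a7 at 29.3 and 30.8 (log2 change -1.46 ± 0.17, adjusted p = 7.6e-05). Both libraries of each lay below both emVE libraries. Slc38a6 (log2 change -2.65 ± 0.28, adjusted p = 4.23e-05), Slc16a10 (log2 change -2.55 ± 0.31, adjusted p = 0.000104), Slc16a13 (log2 change -2.51 ± 0.26, adjusted p = 4.04e-05), Slc16a11 (log2 change -3.70 ± 0.46, adjusted p = 0.000116) and Slc16a9 (log2 change -3.75 ± 0.67, adjusted p = 0.00118) fell as well. Slc6a20b was at 0.216 and 0.517 CPM in the gut tube and 4.28 and 7.14 in emVE (log2 change -3.95 ± 0.62, adjusted p = 0.000547). However, Sacm1l on the opposite strand shares 21.1% of the exon bases of Slc6a20b. The eye carrier Slc38a8 fell from 4.73 and 6 CPM to 0.154 and 0.402 (log2 change -4.26 ± 0.99, adjusted p = 0.00556). Slc1a7 had 0 counts in bulk and 52 over both emVE libraries, at least 18.8-fold lower with the same 3 counts for a group at 0. Further lower genes were Slc1a1, Slc5a5, Slc5a9, Slc5a11, Slc6a4, Slc6a13, Slc16a6 and Slc38a3.

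Among the higher genes, Slc38a1 was at 211 and 246 CPM in the gut tube (log2 change 0.93 ± 0.15, adjusted p = 0.000555). Its neighbours Slc38a2, at 238 and 241 CPM (log2 change 0.55 ± 0.21, adjusted p = 0.0595), and Slc38a4, at 122 and 131 CPM (log2 change 1.20 ± 0.46, adjusted p = 0.0598), missed the threshold. The creatine carrier Slc16a12 was at 6.25 and 9.15 CPM against 1.8 and 1.25 (log2 change 2.34 ± 0.36, adjusted p = 0.000454), and Slc2a4 at 6.67 and 6.06 against 2.18 and 1.04 (log2 change 1.99 ± 0.38, adjusted p = 0.00188). Both were clear of emVE. Slc7a2, an inducible carrier for cationic amino acids, was at 6.27 and 6.53 CPM against 1.41 and 0.898 (log2 change 2.47 ± 0.55, adjusted p = 0.00419). The proline carrier Slc6a7 was at 4.71 and 4.59 CPM against 0.446 and 0.335 (log2 change 3.57 ± 0.70, adjusted p = 0.002). Slc6a14 had 0 counts in emVE and 14 over both bulk libraries, at least 4.30-fold higher on the same terms. Slc6a17, Slc7a6os, Slc16a7, Slc36a2 and Slc38a5 were the other higher genes.

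**Figure D3:**
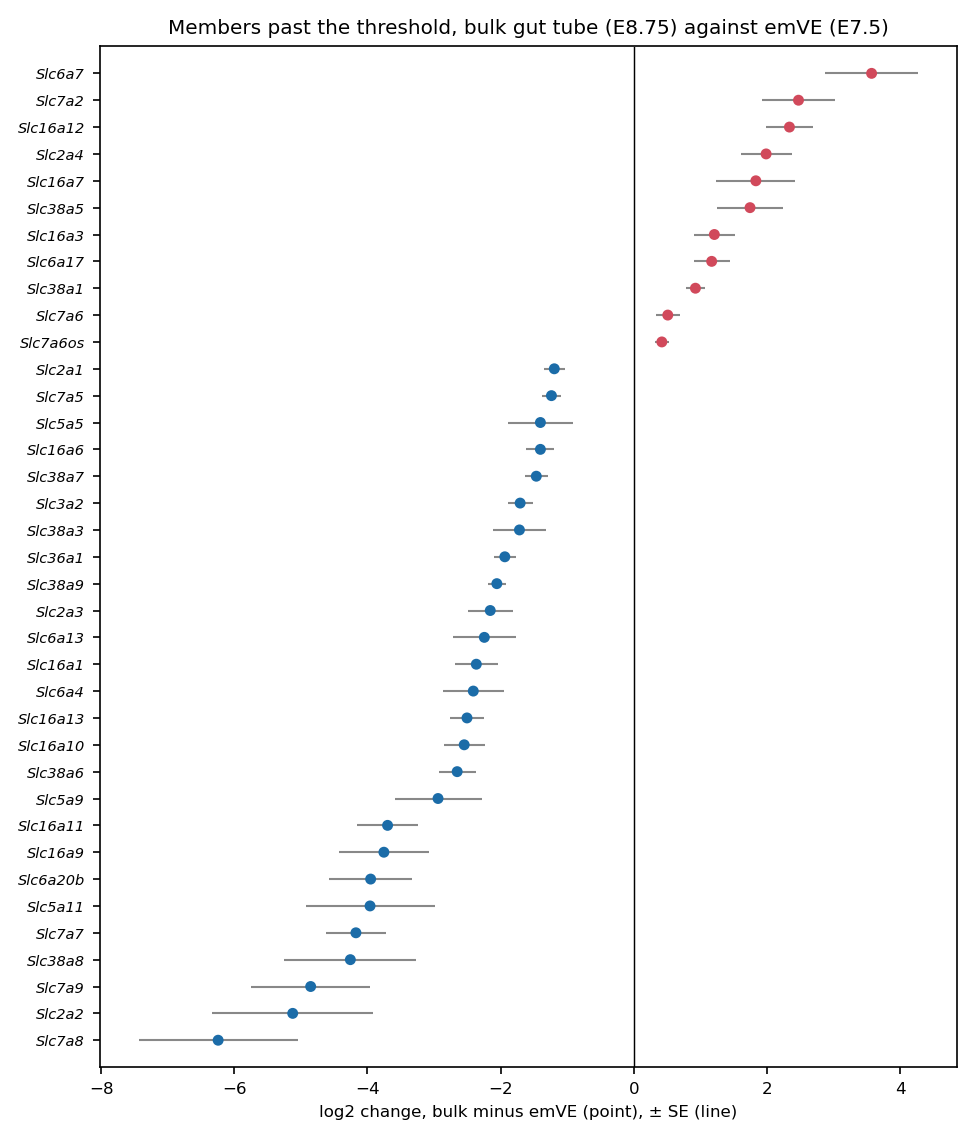
Log2 change from emVE (E7.5) to the bulk gut tube (E8.75) (points, lines ± SE; linear axis) for the 37 of the 42 genes past the threshold with a mean of 1 CPM or more in either group. Slc7a8 stands lowest at -6.24 and Slc6a7 highest at 3.57.

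Brush border genes fell with the carriers: 11 of 18 were lower in the bulk gut tube and none higher, among them Dpp4 (log2 change -2.63 ± 0.27, adjusted p = 4e-05), Lrp2 (log2 change -2.44 ± 0.27, adjusted p = 5.72e-05) and the actin-bundling protein Vil1 (log2 change -3.76 ± 0.55, adjusted p = 0.000335). The sodium pump subunit Atp1b1 was at 15.7 and 22 CPM against 158 and 167 (log2 change -3.11 ± 0.28, adjusted p = 1.98e-05). Visceral endoderm markers summed to 1456 and 2203 CPM in bulk, with 19 of 23 lower than in emVE. As background, 16.9% of all genes were lower in bulk and 21.7% higher. Endothelial markers summed to 577 and 569 CPM in bulk and 39.3 and 59 in emVE, with 11 of 12 higher, and cardiac and splanchnic markers to 773 and 441 and 80.9 and 93.6, with 13 of 16 higher. The part of these cells in the carriers' levels was not tested. Of the 42 called genes 27 passed in each of 4 fits that left out 1 library.

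**Figure D4:**
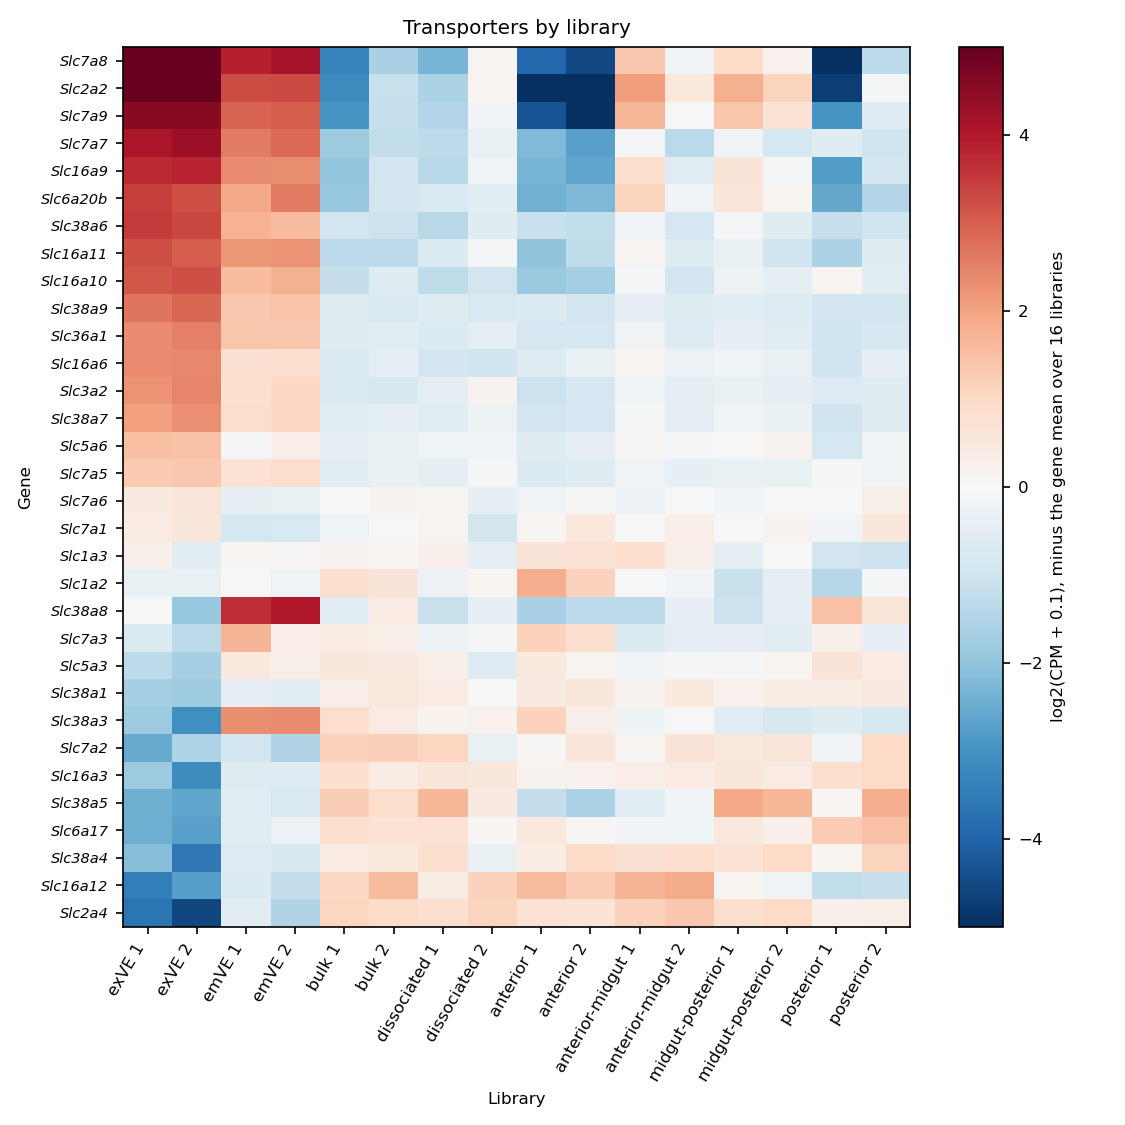
Log2(CPM + 0.1) of 32 carriers in each of the 16 libraries, minus the gene's mean over the libraries (colour, cut at -5 and 5), sorted by exVE minus the E8.75 mean. Slc7a8, Slc2a2 and Slc7a9 are highest in the exVE libraries, Slc2a2 and Slc7a9 are lowest in the anterior ones and Slc7a8 in posterior replicate 1, and Slc16a12 and Slc2a4 are low in exVE.

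Along the gut tube, Slc2a2, Slc7a8, Slc7a9 and other carriers were higher in the middle. In the comparison of the mean of the anterior-midgut and midgut-posterior sections with the mean of the anterior and posterior sections, 17 of the 91 genes were higher in the middle and 1 was lower, where 5.97% and 3.64% of all genes passed. The members' share of 18.7% higher lies above the background. The median change was 0.16 for the 91 and 0.00 for all genes. The number of higher genes fell without anterior replicate 1 or 2, anterior-midgut replicate 1, midgut-posterior replicate 1 or 2, or posterior replicate 1. In each of these fits the share of all genes that were higher fell as well.

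Slc2a2 and the light chains Slc7a8 and Slc7a9 set the middle sections apart. Slc2a2 was at 0.177 and 0.101 CPM in the anterior, 69.7 and 23.4 in the anterior-midgut, 56.7 and 35.4 in the midgut-posterior and 0.537 and 15.6 in the posterior section (log2 change 5.43 ± 0.95, adjusted p = 0.00423). Slc7a8 was at 1.31 and 0.832 CPM in the anterior, 55 and 18.6 in the anterior-midgut, 40.4 and 25 in the midgut-posterior and 0.537 and 8.61 in the posterior section (log2 change 3.96 ± 0.78, adjusted p = 0.00768). Slc7a9 was at 0.166 and 0.0504 CPM in the anterior, 16.6 and 5.28 in the anterior-midgut, 14 and 8.62 in the midgut-posterior and 0.586 and 3.29 in the posterior section (log2 change 4.57 ± 0.67, adjusted p = 0.00158). In all 3 the middle sections did not overlap the ends, anterior-midgut replicate 1 was the highest library of the 8, and posterior replicate 1 was near the anterior level while replicate 2 was not.

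The bases upstream of the RefSeq starts of Slc2a2 and Slc7a9 are shown. They were chosen because both genes moved together along the tube and both windows hold the GATA letters. The letters TGATAA or AGATAA, searched on both strands from 250 bases before the start, were present in 3 of 15 windows of the genes higher in the middle (20.0%), in 7 of 66 windows of the 91 genes (10.6%) and in 16.9% of all windows. The letters GTTAAT, part of the HNF1 site, were present in 1 of the 15 (6.67%) and in 6.54% of all windows. These shares are close to the background. Slc2a2 is given from base 250 to base 1 before the start, chr3:28697653-28697902, and Slc7a9 from base 250 to base 61, chr7:35448842-35449031, both on the plus strand and with the GATA letters, in either orientation, in capitals.
Slc2a2: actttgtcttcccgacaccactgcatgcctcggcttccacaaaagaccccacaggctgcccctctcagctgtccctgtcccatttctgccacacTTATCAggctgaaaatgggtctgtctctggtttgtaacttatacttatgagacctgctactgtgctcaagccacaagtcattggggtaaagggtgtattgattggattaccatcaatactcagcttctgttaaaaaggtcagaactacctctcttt
Slc7a9: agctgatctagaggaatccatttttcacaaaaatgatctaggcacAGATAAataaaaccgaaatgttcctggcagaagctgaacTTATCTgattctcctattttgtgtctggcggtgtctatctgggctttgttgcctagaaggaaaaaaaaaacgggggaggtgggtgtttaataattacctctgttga
The Slc2a2 stretch holds 1 match and the Slc7a9 stretch 2. No annotated exon lies in either stretch. The Slc7a9 stretch lies inside the gene as GENCODE M21 places it, from chr7:35448796, and so is not upstream of every annotated start.

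Slc16a9, Slc6a4 and Slc5a6 were also higher in the middle. Slc16a9, a carrier of carnitine and creatine, was at 1.28 and 1.06 CPM in the anterior, 12.7 and 4.63 in the anterior-midgut, 10.7 and 6.42 in the midgut-posterior and 0.903 and 3.61 in the posterior section (log2 change 2.40 ± 0.46, adjusted p = 0.00662). The serotonin carrier Slc6a4 was at 1.45 and 0.983 CPM in the anterior, 5.02 and 2.31 in the anterior-midgut, 4.42 and 3.09 in the midgut-posterior and 1.03 and 1.31 in the posterior section (log2 change 1.64 ± 0.32, adjusted p = 0.00729). The vitamin carrier Slc5a6 was at 13.7 and 15.2 CPM in the anterior, 22.1 and 19.7 in the anterior-midgut, 21.3 and 23.9 in the midgut-posterior and 11.4 and 18.2 in the posterior section (log2 change 0.57 ± 0.15, adjusted p = 0.0307). Both middle sections were above both ends in each of these 3. Slc6a20b (log2 change 3.18 ± 0.45, adjusted p = 0.00124), Slc16a13 (log2 change 0.86 ± 0.18, adjusted p = 0.00981), Slc38a7 (log2 change 0.60 ± 0.12, adjusted p = 0.00768), Slc38a6 (log2 change 0.73 ± 0.19, adjusted p = 0.0282) and Slc36a1 (log2 change 0.44 ± 0.12, adjusted p = 0.035) were higher in the middle too, as were Slc5a11 and Slc7a7, and the libraries of Slc5a1, Slc5a11, Slc7a7 and Slc16a13 overlapped between middle and ends.

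The sodium-coupled carriers of the adult brush border were detected at low levels. Slc5a1, the intestinal glucose carrier, was at 0.0221 and 0.0252 CPM in the anterior, 0.91 and 0.519 in the anterior-midgut, 1.14 and 0.775 in the midgut-posterior and 0.586 and 0.326 in the posterior section (log2 change 2.95 ± 0.49, adjusted p = 0.00335). Slc5a4b, a relative of Slc5a1, reached 1.76 and 1.54 CPM in the midgut-posterior section against 0 and 0.0504 in the anterior (log2 change 4.32 ± 0.56, adjusted p = 0.00081), and its near copy Slc5a4a could share its reads. The neighbouring neutral amino acid carriers Slc6a18 and Slc6a19 were at 1.13 and 0.304 and 0.614 and 0.36 CPM in the midgut-posterior section and at 0 and 0 and 0.0773 and 0.0252 in the anterior, with adjusted p-values of 0.0119 and 0.0281. All of these stayed under 2 CPM. Of the 21 carriers listed by epithelial face, again with earlier results known, 8 of 16 apical and 3 of 5 basolateral carriers were higher in the middle. None was lower. The share of all genes higher in the middle was 5.97%. Slc3a1 again stayed at 0.53 and 0.592 CPM in the anterior and 0.349 and 0.526 in the midgut-posterior section (log2 change -0.35 ± 0.40, adjusted p = 0.717).

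**Figure D5:**
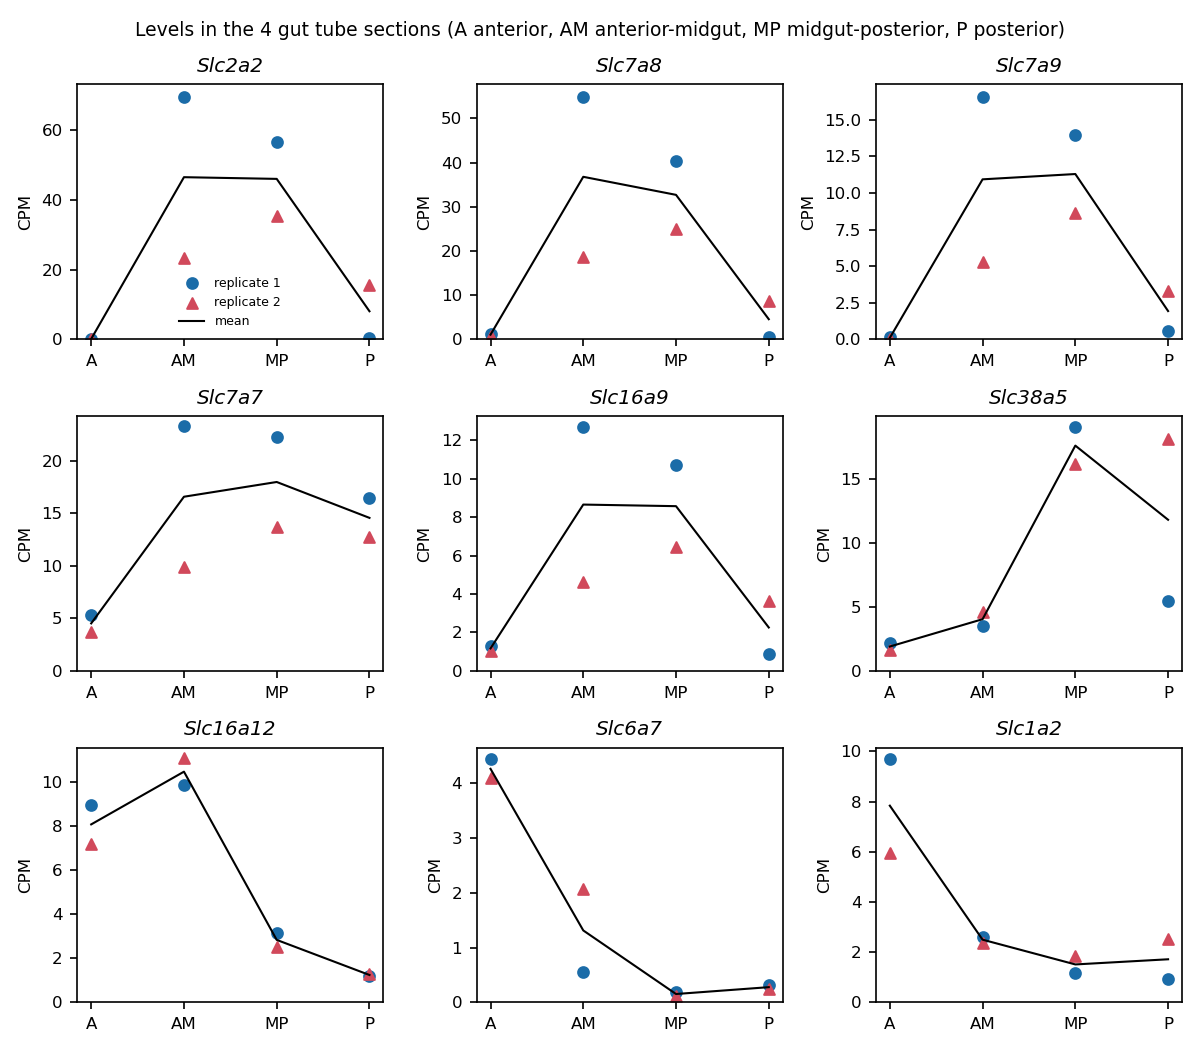
Level (CPM, linear axis from 0, scaled per gene) of 9 carriers in the anterior (A), anterior-midgut (AM), midgut-posterior (MP) and posterior (P) sections, with circles for replicate 1, triangles for replicate 2 and a line through the means. Slc2a2, Slc7a8, Slc7a9 and Slc16a9 are highest in the middle sections, Slc38a5 in the midgut-posterior section, and Slc6a7 and Slc1a2 in the anterior section.

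Visceral endoderm genes moved along the same axis. Their summed level was 1208 and 992 CPM in the anterior, 9609 and 3818 in the anterior-midgut, 7458 and 4925 in the midgut-posterior and 1362 and 2189 in the posterior section, with 18 of 23 higher in the middle, and anterior-midgut replicate 1 was again the highest. Brush border genes did likewise, 11 of 18 higher and none lower, with Dpp4 (log2 change 2.76 ± 0.19, adjusted p = 5.41e-05) and Vil1 (log2 change 3.54 ± 0.39, adjusted p = 0.000353) among them, and so did the sodium pump subunit Atp1b1 (log2 change 1.70 ± 0.19, adjusted p = 0.000345). For these lists the background was 5.97% of all genes higher in the middle and 3.64% lower. The part of the number of visceral endoderm cells in these carriers' levels was not tested. Of the 17 genes higher in the middle, 12 (70.6%) were also lower in the bulk gut tube than in emVE, which is 41.4% of those 29 genes. Over all genes tested, 44.3% of those higher in the middle were lower in the bulk gut tube than in emVE, which is 15.7% of the latter. No library is in both comparisons. Of the 17 genes, 6 (35.3%) were higher in exVE than in emVE, 37.5% of the 16 higher there, and over all genes these shares were 36.6% and 10.9%.

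Between the posterior and the anterior section, 10 of the 91 genes were higher and 8 lower, where 4.03% and 3.89% of all genes passed. These counts depended on each of the 4 libraries. Without any of them, the share of all genes that passed also fell in both directions. Leaving out anterior replicate 1 gave 0 higher and 3 lower genes, and leaving out anterior replicate 2 gave 2 and 5. Leaving out posterior replicate 1 gave 4 and 3, and leaving out posterior replicate 2 gave 3 and 4. Slc16a12 and Slc6a7 passed in all 4 of these fits, and only they did.

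Slc16a12, the creatine carrier, was lower toward the posterior end. It was at 8.96 and 7.2 CPM in the anterior, 9.87 and 11.1 in the anterior-midgut, 3.14 and 2.53 in the midgut-posterior and 1.21 and 1.28 in the posterior section (log2 change -2.70 ± 0.36, adjusted p = 0.000964). It was also the only one of the 91 that differed between the 2 middle sections, lower in the midgut-posterior (log2 change -1.88 ± 0.35, adjusted p = 0.0424). There 0.323% of all genes were lower and 0.173% higher, and no member was higher. At an unadjusted p under 0.05, 7 members differed in either direction, a count with no share of all genes beside it. DESeq2 called 2 members higher and 2 lower, where 0.999% and 1.56% of all genes passed. The call of Slc16a12 between the middle sections was lost in each of the 4 fits without 1 of their libraries. Cardiac and splanchnic markers summed to 2415 and 2053 CPM in the anterior-midgut and 448 and 669 in the midgut-posterior section, and their part was not tested.

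Slc6a7, Slc1a2 and Slc1a3 were higher in the anterior than in the posterior section. Slc6a7 was at 4.43 and 4.08 CPM in the anterior, 0.559 and 2.06 in the anterior-midgut, 0.195 and 0.111 in the midgut-posterior and 0.317 and 0.238 in the posterior section (log2 change -3.93 ± 0.71, adjusted p = 0.00531). Slc1a2, a glutamate carrier of astrocytes, was at 9.72 and 5.96 CPM in the anterior, 2.63 and 2.38 in the anterior-midgut, 1.17 and 1.85 in the midgut-posterior and 0.928 and 2.51 in the posterior section (log2 change -2.19 ± 0.43, adjusted p = 0.00929). Slc1a3, another glial glutamate carrier, was at 14.1 and 15.2 CPM in the anterior, 16.2 and 11.1 in the anterior-midgut, 6.6 and 9.11 in the midgut-posterior and 4.76 and 4.29 in the posterior section (log2 change -1.69 ± 0.32, adjusted p = 0.00726). The anterior libraries were above the posterior ones in all 3, and Slc1a3 overlapped with them in the anterior-midgut section. Markers of neural tube and crest summed to 61.6 and 101 CPM in the anterior and 10.6 and 17.5 in the posterior section, with 4 of 11 tested lower in the posterior. Their part in these carriers was not tested. Slc38a3 (log2 change -1.53 ± 0.41, adjusted p = 0.0395), the GABA carrier Slc6a13 (log2 change -2.23 ± 0.49, adjusted p = 0.0155) and Slc2a10 (log2 change -1.11 ± 0.28, adjusted p = 0.0316) were lower in the posterior section too. Slc16a14 had 14 counts over both anterior libraries and 0 in the posterior ones, at least 4.44-fold lower.

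Posterior genes included the system N carrier Slc38a5, which was at 2.18 and 1.64 CPM in the anterior, 3.51 and 4.58 in the anterior-midgut, 19.1 and 16.2 in the midgut-posterior and 5.47 and 18.2 in the posterior section (log2 change 2.63 ± 0.52, adjusted p = 0.00889). Slc6a17 was at 6.4 and 4.54 CPM in the anterior, 3.99 and 3.83 in the anterior-midgut, 6.39 and 5.29 in the midgut-posterior and 10.7 and 12.5 in the posterior section (log2 change 1.08 ± 0.27, adjusted p = 0.0283), and was the single gene lower in the middle than at the ends (log2 change -0.74 ± 0.19, adjusted p = 0.0293). Slc16a10 was at 5.32 and 5.96 CPM in the anterior, 18.6 and 10.1 in the anterior-midgut, 16.5 and 14.1 in the midgut-posterior and 21.5 and 13.7 in the posterior section (log2 change 1.64 ± 0.30, adjusted p = 0.00603). Slc38a5 was high in both midgut-posterior libraries and in posterior replicate 2, and Slc6a17 was highest in both posterior libraries. Slc7a7 was at 5.32 and 3.72 CPM in the anterior, 23.3 and 9.87 in the anterior-midgut, 22.3 and 13.7 in the midgut-posterior and 16.4 and 12.7 in the posterior section, lowest in the anterior section (log2 change 1.68 ± 0.42, adjusted p = 0.0293). Slc7a5 rose less, from 50.2 and 52.7 to 77.8 and 72.9 CPM (log2 change 0.55 ± 0.14, adjusted p = 0.0353). Slc2a2, Slc5a1, Slc5a9, Slc7a9 and Slc38a8 were the other genes higher in the posterior section. In the same comparison 9 of 23 visceral endoderm and 5 of 18 brush border genes were higher and none lower, 6 of 12 epiblast markers were higher, and 9 of 16 cardiac and splanchnic markers were lower and 1 higher. Their part in the carriers' differences was not tested. As background, 4.03% of all genes were higher in the posterior section and 3.89% lower.

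Among the 4 sections as a whole 21 of the 91 genes differed, where 12.9% of all genes did. Their highest mean lay in the anterior-midgut section for 8, in the midgut-posterior for 7, in the anterior for 4 and in the posterior for 2. Over all genes tested the shares with such a peak were 3.33%, 2.24%, 3.67% and 3.67%. The 8 were Slc2a2, Slc6a13, Slc6a18, Slc6a20b, Slc7a8, Slc16a9, Slc16a12 and Slc38a7, and the 7 were Slc5a1, Slc5a4b, Slc6a4, Slc7a7, Slc7a9, Slc16a13 and Slc38a5. The 4 were Slc1a2, Slc1a3, Slc6a7 and Slc38a3, and the 2 were Slc6a17 and Slc16a10. Without anterior replicate 1 or 2, anterior-midgut replicate 1, midgut-posterior replicate 1 or 2, or posterior replicate 1, fewer of the 91 genes passed. In each of these fits a smaller share of all genes passed too. Slc5a4b, Slc6a7, Slc6a20b, Slc7a9, Slc16a12 and Slc38a5 passed in each of the 8 fits without 1 library.

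Slc2a3, Slc16a3 and Slc6a6 passed no test along the tube. Slc2a3 was at 875 and 801 CPM in the anterior, 1769 and 911 in the anterior-midgut, 1893 and 1299 in the midgut-posterior and 1806 and 1294 in the posterior section, with a posterior minus anterior change of 0.89 ± 0.33 (adjusted p = 0.134). Slc16a3 was at 221 and 226 CPM in the anterior, 249 and 259.8 in the anterior-midgut, 288 and 263 in the midgut-posterior and 343 and 382 in the posterior section, with a posterior minus anterior change of 0.69 ± 0.30 (adjusted p = 0.218). The taurine carrier Slc6a6 was at 152 and 145 CPM in the anterior, 132 and 140.4 in the anterior-midgut, 156 and 169 in the midgut-posterior and 131 and 177 in the posterior section, with a change of 0.05 ± 0.24 (adjusted p = 0.961). Both anterior libraries of Slc2a3 were below the other 6, those of Slc16a3 were higher in the posterior than in each other section, and those of Slc6a6 overlapped. Slc1a5 stood between 35.8 and 51.7 CPM in its section means, and its change from the ends to the middle missed the threshold (log2 change -0.32 ± 0.10, adjusted p = 0.0608).

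Between dissociated and bulk gut tubes none of the 91 genes passed in edgeR's test, and 0% of all genes passed in either direction. At an unadjusted p under 0.05, 9 of the 91 did, again with no share of all genes beside it. DESeq2 called 0 higher and 1 lower, where 1.03% of all genes were higher and 0.722% lower. The 2 dissociated libraries were far apart: the visceral endoderm markers summed to 1912 and 6026 CPM in them and to 1456 and 2203 in bulk, and Slc2a2 was at 5.4 and 18.2 CPM in dissociated cells and 1.69 and 7.46 in bulk. Slc3a2 was at 119.6 and 190.1 CPM in dissociated cells and 101 and 97.3 in bulk (log2 change 0.65 ± 0.18, adjusted p = 0.254), and Slc38a4 at 157 and 69.8 and 122 and 131 (log2 change -0.16 ± 0.46, adjusted p = 0.892). Slc2a1, at 603 and 647 CPM, lay close to its bulk level (log2 change -0.01 ± 0.15, adjusted p = 0.978). Immediate early genes, which respond to handling, summed to 1964 and 2478 CPM in dissociated cells and 371 and 559.9 in bulk. In the section libraries they summed to 919 to 1738 CPM. Between dissociated cells and bulk 0 of these 17 genes passed. Without dissociated replicate 1, where that group is left with 1 library assumed to vary like the others, 5 of the 91 genes were higher and 6 lower, where 12.1% and 14.4% of all genes passed.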

How the data were processed

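For each of 16 mouse libraries the authors deposited 1 table of gene symbols with raw counts. The submitters' processing notes name STAR; the sources used here give no version of it, and no genome build, annotation, counting program or strand setting. A table holds 26795 entries; 32 symbols recur and were added up, which leaves 26761, of which 25561 matched mouse gene names.

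Tests used edgeR 4.0.16 under R 4.3.3: TMM factors, filterByExpr by group (minimum count 10, minimum total 15; 17313 genes), and 1 quasi-likelihood fit of all 16 libraries with a coefficient per group (8 residual degrees of freedom, prior 3.74, common dispersion 0.0592). Tests were two-sided, with Benjamini-Hochberg adjustment over all genes. There were 6 comparisons of groups and 1 test of any difference among the 4 sections. Levels per kilobase use GENCODE M21 exons of protein-coding transcripts. Genes at 0 in a group were set against 3 counts over the group. Depth and floors cover counting error only. Promoters came from RefSeq.

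The same replicate numbers appear in all groups, and no label gives them a meaning. Chi-square values per gene between libraries of a group were 30.5 to 343, so none were merged. Alternatives were RLE size factors, library totals, no filter, a replicate block, the compared groups alone, DESeq2 1.42.0, and each library left out. Steps were tested on simulated data. Genes set out by library passed without overlap between groups, up to 8 per direction with 5 CPM or more in the higher group, plus carriers listed by role. The members, the gene lists and the grouping by epithelial face were chosen with earlier results of these data known. A few genes are counted in the totals and not reported by name here.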

Additional observations from a re-analysis of the deposited data

How the results depend on the processing

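Of the results for single genes under the alternatives run, 5130 stayed on the same side of the threshold, 128 gained a call and 1 reversed. The rest lost a call. The 5130 include results that passed in neither fit, so they do not measure how many calls were kept. The one that reversed was Slc7a6os, higher in exVE than in emVE, which changed by -0.0864 on the log2 scale with library totals, a scaling that lowers the median of all genes there by 0.357. Counts of members moved by over 1.5 times in these cases, whose cause was not tested. With library totals, 3 members were lower in the middle sections, where 4.21% of all genes were. With only the compared groups in the fit, 25 were higher in exVE than in emVE. Between the posterior and the anterior section 6 were higher and 3 lower. In the middle 5 were lower, and 1 was higher in the midgut-posterior than in the anterior-midgut section. The shares of all genes, in the same order, were 25.0%, 2.83%, 3.02%, 5.54% and 0.448%. With DESeq2, 5 were lower in the middle and 38 differed among sections, where 6.33% and 21.6% of all genes did. It called 2 higher and 2 lower between the middle sections, and 1 lower in dissociated cells than in bulk.

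A replicate block, for which the labels give no reason, put 15 members higher and 30 lower in exVE, where 19.1% and 23.2% of all genes were. In the posterior section it put 7 and 7, beside 3.57% and 3.36% of all genes. In the middle it put 14 and 1, beside 5.47% and 3.25%. In bulk against emVE it put 14 and 29, beside 20.9% and 16.05%. Among sections 20 differed, where 11.4% of all genes did. Between the middle sections it put 0 in either direction, where 1 was lower without it. There 0.121% of all genes were higher and 0.185% lower. Same-numbered libraries had correlations of deviations from -0.108 to 0.216.

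Leaving out 1 library at a time gave 13 to 16 members higher and 22 to 28 lower in exVE, 7 to 10 higher and 23 to 30 lower in bulk against emVE, 10 to 17 higher and 0 to 1 lower in the middle, 0 to 4 higher and 3 to 5 lower in the posterior section, 0 to 0 in either direction between the middle sections, 0 to 5 higher and 0 to 6 lower in dissociated cells, and 9 to 22 differing among sections. In most of these fits the share of all genes that passed fell as well. It rose in a few, such as the comparison of dissociated cells with bulk without dissociated replicate 1. The ranges therefore show how the number of calls depends on single libraries, and cannot separate the members from all genes. With 2 libraries per group, a group that loses one is assumed to vary like the others. Depth limits the genes under 1 CPM.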
